A study of Mus musculus with 6 samples.

Results

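Expression of 36 genes that answer to misfolded protein or to a shortage of amino acids was followed in MS5 stromal cells with and without a MEK inhibitor. The genes were taken by symbol from a list that names them. All 36 were found among the 19938 genes that the array's annotation names singly, and together they had 38 of the 28853 probe sets. Of the members, 20 formed an ATF4 group (transcription factors, amino acid and one-carbon enzymes, and amino acid transporters) and 16 formed a chaperone group of the endoplasmic reticulum (ER). MS5 is a stromal line from mouse bone marrow, and 1 such line, grown alone in alpha-MEM with fetal bovine serum, was the only model. Control cultures received the DMSO diluent, and treated cultures received 1 μM PD184352 (MEKi), an inhibitor of the kinase MEK, each for 7 days. Every one of 3 independent experiments, called series 1, 2 and 3 in the labels, gave 1 control and 1 MEKi culture and hence 2 Affymetrix whole-transcript arrays, 6 in all.

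Proteins that misfold in the ER are sensed by the membrane proteins PERK, IRE1 and ATF6. IRE1 splices the mRNA of Xbp1, and the XBP1 and ATF6 proteins then switch on chaperones, disulfide isomerases and genes that export and degrade misfolded proteins. PERK, like the amino acid sensor GCN2, phosphorylates the translation factor eIF2α, which slows protein synthesis in general but favours translation of the Atf4 mRNA. The ATF4 protein, which binds DNA together with C/EBP partners, then raises genes that import and make amino acids, and also the factor CHOP, encoded by Ddit3. Secretory cells such as marrow stroma, which release much collagen and other matrix, rely on this folding machinery. Since splicing of Xbp1, cleavage of ATF6 and translation of Atf4 act after transcription, array values of these 3 genes do not measure the activity of their proteins.

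Some of the promoters hold the letters through which the 2 arms are known to act. A few of these are printed to show what such elements look like. Many members had no match in the stretch searched, and other stretches were not searched. RefSeq windows of GRCm38.p6, from 250 bases before to 50 bases after a gene's start, were at hand for 31 of the 36 members, and 4 of these had several windows. The element bound by ATF4 with C/EBP proteins (CARE) was searched as TGATGNAA on both strands. It was present in 3.97% of all 32851 windows, in those of 5 of 18 ATF4 group genes (Asns, Chac1, Nupr1, Slc7a11 and Trib3) and in that of 1 of 13 chaperone group genes (Herpud1). Counted by window, as the background is, the match was in 5 of 23 and 1 of 13. Of the ATF4 group, 4 carried it before the start, and Slc7a11, which encodes the cystine transporter, held 2 matches, beginning 66 and 47 bases before the start. In the lines below the match is in capitals, 5′ to 3′ on the strand of the gene, so that a match on the other strand appears as its reverse complement.
Asns: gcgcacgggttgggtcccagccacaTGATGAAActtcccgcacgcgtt
Chac1: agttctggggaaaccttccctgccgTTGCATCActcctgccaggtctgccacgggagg
Nupr1: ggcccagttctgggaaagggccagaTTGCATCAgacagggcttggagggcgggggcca
Slc7a11: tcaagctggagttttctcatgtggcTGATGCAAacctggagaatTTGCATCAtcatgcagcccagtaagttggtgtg
These windows lie at chr6:7693210-7693257, minus strand (Asns), chr2:119351024-119351081, plus strand (Chac1), chr7:126625548-126625605, minus strand (Nupr1) and chr3:50443628-50443704, minus strand (Slc7a11). The Trib3 match lay after the gene's start.

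The ER stress element (ERSE), which ATF6 and XBP1 use together with the factor NF-Y, was searched as CCAAT and CCACG with 9 bases between them, on both strands. It was present in 0.119% of all windows, in those of 7 of 13 chaperone group genes (Calr, Canx, Creld2, Dnajc3, Hsp90b1, Hspa5 and Pdia6) and in those of 0 of 18 ATF4 group genes. Hsp90b1, which encodes the ER chaperone GRP94, held 2 matches, of which the one nearer to the start is shown. A variant of the element, ATTGG and CCACG with 1 base between them, was present in 0.0365% of windows and, of the members, in Herpud1 only. TGACGTGG, the core of an element bound by XBP1 and ATF6, was present in 0.676% of windows and in none of the members. No 2 different motifs overlapped in a member. A match describes letters and does not show that a factor was bound.
Hspa5: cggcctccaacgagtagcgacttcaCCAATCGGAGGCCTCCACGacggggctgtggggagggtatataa
Hsp90b1: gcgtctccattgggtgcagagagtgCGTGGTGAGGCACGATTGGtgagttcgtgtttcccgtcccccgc
Creld2: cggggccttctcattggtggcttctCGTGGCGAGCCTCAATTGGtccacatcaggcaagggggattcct
Herpud1: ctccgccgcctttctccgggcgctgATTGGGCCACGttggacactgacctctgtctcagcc
These windows lie at chr2:34772000-34772068, plus strand (Hspa5), chr10:86705508-86705576, minus strand (Hsp90b1), chr15:88819495-88819563, plus strand (Creld2) and chr8:94386352-94386412, plus strand (Herpud1).

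The values are log2 intensities that the authors normalized with the robust multichip algorithm (RMA), and array medians lay between 6.29 and 6.38. Brightness also depends on the probes. Ranks of different probe sets, given below for markers and members, are therefore only a rough guide to levels. The ERK pathway outputs Ccnd1 and Fosl1 were lower with MEKi by 1.32 and 0.81 on the log2 scale (adjusted p = 0.03 and 0.0319, limma). Both missed that threshold when the experiment was a random block (0.377 and 0.497) or no block at all, when arrays were centred (0.0508 and 0.0523) and without experiment 2 (0.131 and 0.14), and Fosl1 also without experiment 1 (0.103), while both were lower in each experiment. Dusp6, a phosphatase that acts on ERK, had a difference of −0.57 (0.137) and Spry4, another feedback inhibitor, one of −0.36 (0.575). By experiment, Dusp6 differed by −0.74, −0.65 and −0.33 in experiments 1, 2 and 3. Spry4 differed by −0.33, −0.91 and 0.16, so it was higher with MEKi in experiment 3. The probe sets of 7 stromal markers, among them Col1a1 and Cxcl12, were brighter than 86.1% to 98.5% of all probe sets, while 4 haematopoietic, 3 endothelial and 2 epithelial markers were brighter than 14.2% to 46.9%.

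None of the 36 members changed with MEKi at an adjusted p under 0.05 (limma with the experiment as a block, adjusted over the whole array by Benjamini-Hochberg), against 0.159% of all probe sets. Adjusted p-values of the members ran from 0.209 for Aldh1l2 to 0.991 for Sesn2. At an unadjusted p under 0.05 from limma, 4 members were lower (Ddit3, Trib3, Aldh1l2 and Slc7a11) and 1 was higher (Slc6a9), all in the ATF4 group, where 2.31% of all probe sets were lower and 7.58% higher by this criterion. None reached a 1.5-fold change together with an unadjusted p of at most 0.05, a criterion that 0.537% of all probe sets met. Of the members, 6 were lower in each of the 3 experiments (background 7.98%) and 5 were higher in each (background 23.8%). The unadjusted count was 2 without experiment 1 (Aldh1l2 and Slc7a11), 2 without experiment 3 (Aldh1l2 and Slc6a9) and 7 without experiment 2 (Atf4, Ddit3, Trib3, Nupr1, Mthfd2, Aldh1l2 and Slc7a11). It was 0 in a fit without the replicate block. Slc6a9 missed this criterion with array weights, and also when the arrays were centred or once more quantile-normalized. In bulk RNA, a lower level in every cell and fewer cells with a high level cannot be told apart.

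**Figure D1:**
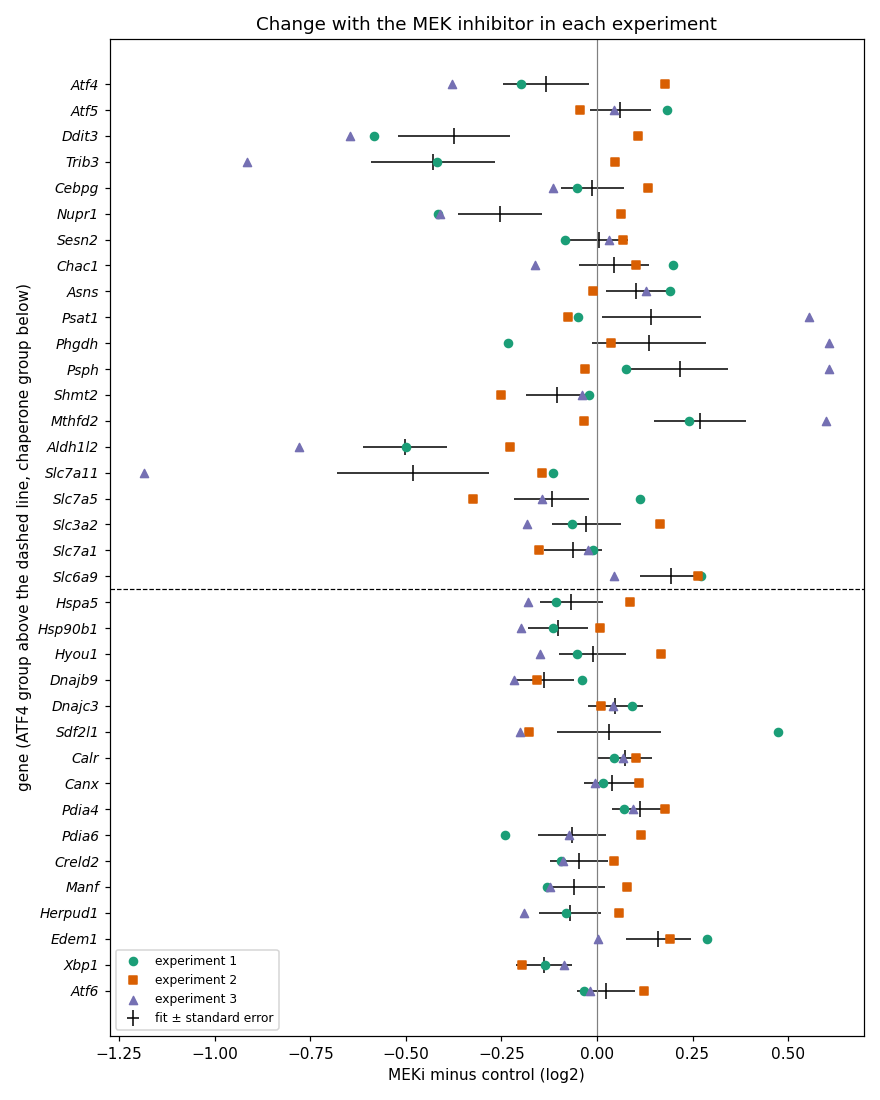
Each of the 36 members (y axis) with its log2 difference, MEKi minus control (x axis); colours mark the single experiments, and black bars give the limma estimate ± standard error. The chaperone group lies between −0.14 and 0.16 by estimate, while the ATF4 group reaches from −0.50 to 0.27 and its farthest points, at −1.18 and 0.61, are from experiment 3.

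The 2 groups had almost the same middle but a different width. The median log2 difference was −0.020 in the ATF4 group and −0.029 in the chaperone group, beside 0.037 over all probe sets, and the first exceeded the second by 0.009. The median size of a difference, regardless of sign, was 0.135 in the ATF4 group, 0.066 in the chaperone group and 0.075 over all probe sets. By experiment, the ATF4 group had medians of −0.051, 0.012 and −0.078 in experiments 1, 2 and 3, and the chaperone group had −0.046, 0.082 and −0.087. Over all probe sets these medians were −0.003, 0.100 and 0.014. In experiment 3 the standard deviation over genes of the differences was 0.50 in the ATF4 group and 0.10 in the chaperone group. In experiment 2 it was 0.15 and 0.12, and in experiment 1 it was 0.25 and 0.18. Over all probe sets this standard deviation was 0.21, 0.19 and 0.20 in experiments 1, 2 and 3. All 7 differences of at least 1.5-fold among the members came from the ATF4 group in experiment 3, 4 of them lower (Slc7a11, Trib3, Aldh1l2 and Ddit3) and 3 higher (Phgdh, Psph and Mthfd2). Of all probe sets, 1.6%, 1.3% and 1.56% differed by that much in experiments 1, 2 and 3. Ddit3 in experiment 1, at −0.583, just missed that cut, which is 0.585 on the log2 scale. The medians of the groups differed by −0.005, −0.070 and 0.009 in experiments 1, 2 and 3, so that no order of the groups held in all of them. The chaperone group median was 0.017, above 0, without experiment 3.

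Among the ATF4 group's regulators, Ddit3, which encodes the pro-apoptotic factor CHOP, had control values of 9.28, 8.79 and 10.72 and MEKi values of 8.69, 8.90 and 10.07 in experiments 1, 2 and 3. The MEKi culture was lower than its control in experiments 1 and 3 and not in experiment 2, and both arrays of experiment 3 lay above all others. Its log2 difference was −0.37 (standard error 0.15, adjusted p = 0.468 from limma). Trib3, a pseudokinase induced by CHOP and ATF4, had control values of 6.92, 6.38 and 8.69 and MEKi values of 6.51, 6.43 and 7.78. The pattern was that of Ddit3, with differences of −0.42, 0.05 and −0.92 and an estimate of −0.43 (standard error 0.16, adjusted p = 0.457). Nupr1, a stress-induced nuclear protein, differed by −0.42, 0.06 and −0.41, an estimate of −0.25 (adjusted p = 0.515). Without experiment 2, Ddit3 had a difference of −0.61 and Trib3 one of −0.67 (adjusted p = 0.153 and 0.258 from limma), and without experiment 3 the differences were −0.24 and −0.19 (0.875 and 0.894). In experiment 2 just 7199 of all 28853 probe sets were lower with MEKi, against 14678 and 13376 in experiments 1 and 3. That background applies to every gene described as lower in experiments 1 and 3 only.

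Atf4 itself had control values of 8.17, 7.97 and 8.74 and MEKi values of 7.97, 8.15 and 8.36. It was lower with MEKi in experiments 1 and 3 and higher in experiment 2, the groups overlapped, and the estimate was −0.13 (95% confidence interval −0.40 to 0.13). The other regulators stayed close to 0. Atf5, a relative of ATF4, had an estimate of 0.06, Cebpg, a dimer partner of ATF4, −0.01, Sesn2, which restrains the growth kinase complex mTORC1, 0.01, and Chac1, an enzyme that breaks down glutathione, 0.05. The signs of Sesn2 and Chac1 turned negative after a further quantile normalization, and Sesn2 also after centring each array on its median.

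In experiment 3 the enzymes of serine synthesis differed in the opposite direction to Ddit3 and Trib3. Phgdh, Psat1 and Psph catalyse the 3 successive steps of serine synthesis. Phgdh had control values of 8.43, 8.73 and 8.18 and MEKi values of 8.20, 8.76 and 8.79, so that experiment 3 had the lowest control and the highest MEKi culture. Psat1 had control values of 9.99, 10.46 and 9.85 and MEKi values of 9.94, 10.38 and 10.40. Psph had control values of 7.54, 8.16 and 7.56 and MEKi values of 7.61, 8.12 and 8.16. In experiment 3 the differences were 0.61, 0.55 and 0.61 for Phgdh, Psat1 and Psph, while in experiments 1 and 2 they lay between −0.23 and 0.08. The estimates were 0.14, 0.14 and 0.22 (adjusted p = 0.814, 0.773 and 0.634 from limma). Without experiment 3 they were −0.10, −0.06 and 0.02, so the higher mean of the pathway rested on that experiment. Phgdh also shares 1 further probe set with a gene of another name, which was left out. Asns, the asparagine synthetase, had values of 11.71 to 11.81 in the controls and 11.80 to 11.90 with MEKi, an estimate of 0.10 (95% confidence interval −0.08 to 0.29). These 3 serine enzymes were picked out after their values had been seen.

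Aldh1l2, the mitochondrial enzyme that oxidizes 10-formyltetrahydrofolate, had the smallest p of the members. Its control values were 9.53, 8.77 and 10.88 and its MEKi values 9.03, 8.54 and 10.10. Each MEKi culture was below its own control, but the 2 conditions overlapped because the experiments lay up to 2.11 apart. The differences were −0.50, −0.23 and −0.78, an estimate of −0.50 or 0.706 of the control level (standard error 0.11, 95% confidence interval −0.76 to −0.24, adjusted p = 0.209 from limma). Over the alternative fits, the smallest adjusted p of any member was 0.0921, for Aldh1l2 with an intensity trend and a robust prior. Of the other mitochondrial one-carbon enzymes, one had a difference in the other direction and one a smaller difference in the same direction. Mthfd2, which acts earlier in the same folate pathway, differed by 0.24, −0.03 and 0.60 (estimate 0.27, adjusted p = 0.534, and from 0.10 without experiment 3 to 0.42 without experiment 2), and Shmt2, which feeds that pathway from serine, by −0.02, −0.25 and −0.04 (estimate −0.10, 0.733).

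Of the transporters, Slc7a11 imports cystine for glutathione synthesis. It had control values of 4.89, 5.26 and 6.32 and MEKi values of 4.77, 5.11 and 5.14. The control of experiment 3 stood 1.06 above the next highest array, and the other 5 lay within 0.48. By its mean the probe set was brighter than only 31.9% of all probe sets, the lowest share of any member, and those 5 values overlapped those of the blood cell markers Ptprc (4.71 to 5.06) and Itgam (4.99 to 5.15). RMA values carry no detection call, so differences among these 5 arrays may not reflect the transcript. The difference was −1.18 in experiment 3 and −0.12 and −0.15 in experiments 1 and 2, an estimate of −0.48 (standard error 0.20, adjusted p = 0.492 from limma) and one of −0.13 without experiment 3. Slc6a9, the glycine transporter GLYT1, had control values of 9.30, 9.34 and 9.74 and MEKi values of 9.57, 9.60 and 9.79. Each MEKi culture was above its control, by 0.27, 0.26 and 0.05 (estimate 0.19, standard error 0.08, adjusted p = 0.5), and the conditions overlapped. Slc7a5 and Slc3a2, which together form the LAT1 exchanger for large neutral amino acids, had estimates of −0.12 and −0.03, and Slc7a1, a carrier of arginine and lysine, one of −0.06.

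**Figure D2:**
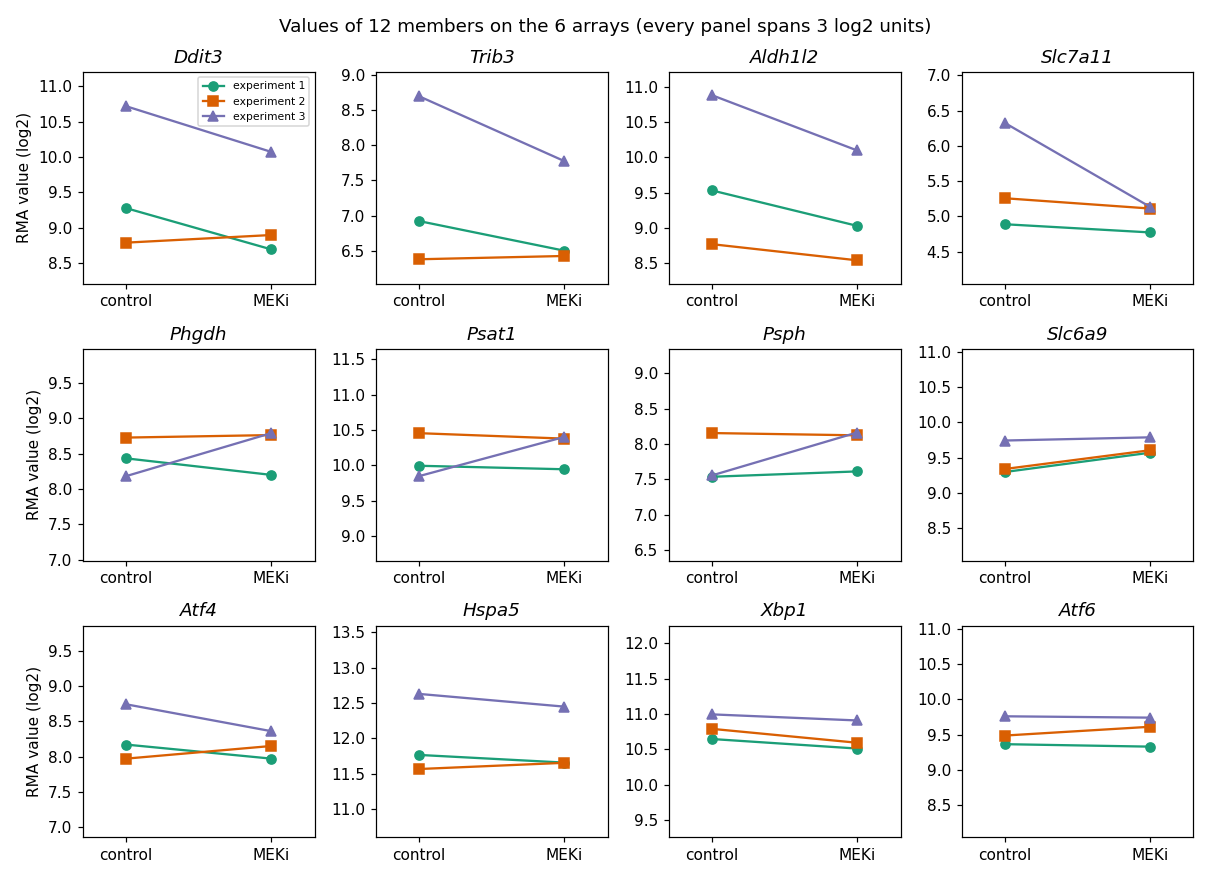
RMA values on the log2 scale (y axis) of 12 members in control and MEKi cultures (x axis), with a line joining the 2 cultures of an experiment; every panel spans the same range. Ddit3, Trib3, Aldh1l2 and Slc7a11 start highest in the control of experiment 3 and slope down there, whereas Phgdh, Psat1 and Psph start at 8.18, 9.85 and 7.56 in that control and slope up.

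The median standard error was 0.078 in the chaperone group, 0.104 in the ATF4 group and 0.082 over all probe sets. The 95% confidence interval of each of the 16 chaperone group genes lay within a 1.5-fold change either way. The outermost bounds were −0.32 (Dnajb9) and 0.36 (Edem1). In the ATF4 group 16 of 20 did so, the others being Ddit3, Trib3, Aldh1l2 and Slc7a11. The intervals come from the fit with the experiment as a block. The share of all probe sets within these limits was not computed, so the counts have no background. Hspa5, which encodes the ER HSP70 chaperone BiP and is widely used as the readout of ER stress, had control values of 11.76, 11.56 and 12.63 and MEKi values of 11.65, 11.65 and 12.45. Both arrays of experiment 3 were above the other 4, and the MEKi culture was below its control in experiments 1 and 3 only. The estimate was −0.07 (95% confidence interval −0.26 to 0.13, adjusted p = 0.84 from limma). Hsp90b1 had an estimate of −0.10, Hyou1, an exchange factor of BiP, one of −0.01, and the BiP co-chaperones Dnajb9 and Dnajc3 had −0.14 and 0.05. Dnajc3 has 2 probe sets with identical values. Sdf2l1, a partner of ER co-chaperones, differed by 0.47, −0.18 and −0.20, and its estimate of 0.03 turned negative after a further quantile normalization or centring.

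The lectin chaperones Calr and Canx, which retain glycoproteins until they fold, had the closest controls of the group, spanning 0.13 and 0.05, and estimates of 0.07 and 0.04. The disulfide isomerases Pdia4 and Pdia6 had estimates of 0.11 and −0.07, and a second, dimmer probe set of Pdia4 gave 0.15. Creld2 and Manf, proteins secreted under ER stress, had −0.05 and −0.06. Both were lower in experiments 1 and 3 and higher in experiment 2. Most probe sets of the array were likewise higher in experiment 2. Herpud1, a membrane protein of ER-associated degradation, had −0.07, and Edem1, which directs misfolded glycoproteins to degradation, had 0.16 (adjusted p = 0.592), higher in all 3 experiments. Xbp1 had control values of 10.64, 10.79 and 10.99 and MEKi values of 10.51, 10.59 and 10.91. Each MEKi culture was below its control, by 0.09 to 0.20, and the estimate was −0.14 (95% confidence interval −0.31 to 0.03, adjusted p = 0.596). Atf6 had control values of 9.36, 9.49 and 9.76 and MEKi values of 9.33, 9.61 and 9.74, an estimate of 0.02 whose sign turned under a further quantile normalization or centring.

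The members also differed between experiments. In 34 of the 36 the 3 controls spanned more than the size of the MEKi difference, the exceptions being Slc7a1 and Asns, but 87.2% of all probe sets did so too. The median span of the controls was 0.58 in both groups, against 0.22 over all probe sets. In 6 members (Trib3, Aldh1l2, Ddit3, Slc7a11, Sdf2l1 and Hspa5) the controls spanned over 1 log2 unit, as they did for 2.71% of all probe sets. The control of experiment 3 was the highest of the 3 controls in all 16 chaperone genes and in 11 of 20 ATF4 group genes, where 33.7% of all probe sets had that order. In the MEKi cultures, experiment 3 was the highest in 14 of 16 chaperone genes and 13 of 20 ATF4 group genes (background 22.4%). The experiment term of the same limma fit, read after the values had been seen, passed at an adjusted p under 0.05 for 12 members, 8 of the chaperone group and 4 of the ATF4 group (background 7.69%). Those were Hspa5, Hsp90b1, Hyou1, Dnajb9, Sdf2l1, Creld2, Manf and Herpud1, and Aldh1l2, Trib3, Ddit3 and Shmt2, with adjusted p-values from 0.00105 (Aldh1l2) to 0.0401 (Hyou1). The count was 6 without experiment 1, 15 without experiment 2 and 7 without experiment 3. The term also passed for 7 of 22 other genes linked to ATF4, for 0 to 3 genes in each further pathway list below, and for all 4 ERK outputs. The background includes dim probe sets, whereas each member but Slc7a11 was brighter than at least 59.28% of all probe sets. What differed between the experiments, such as confluence, serum or medium, is not given in the sources used here, and its part in these values was not tested.

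**Figure D3:**
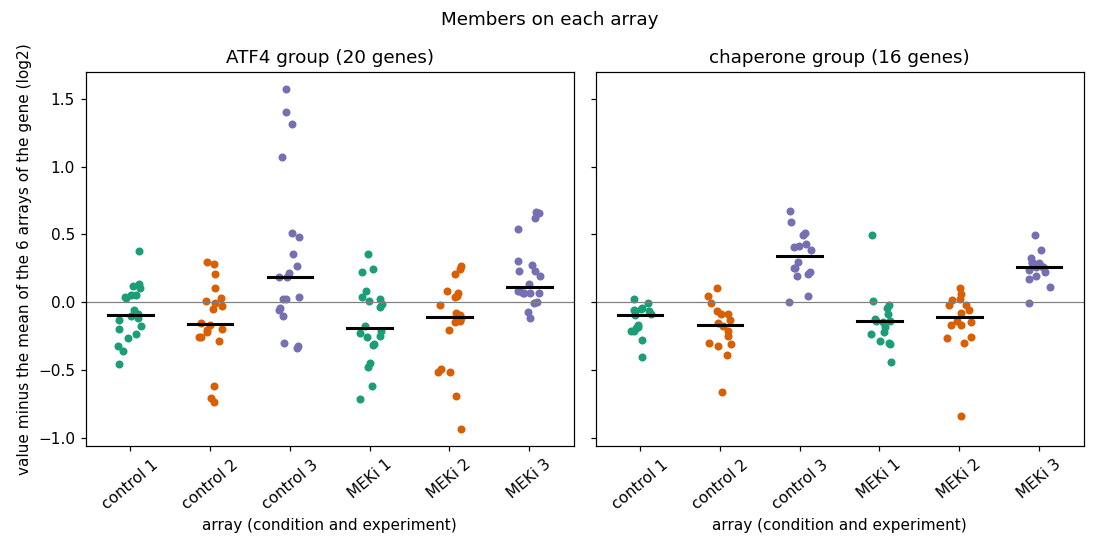
Value minus the mean over the 6 arrays of the same gene, on the log2 scale (y axis), on each array (x axis) for the ATF4 group (left) and the chaperone group (right); points are genes, spread sideways for visibility, and the black bar is their median. In the chaperone group the medians of both arrays of experiment 3 lie above those of experiments 1 and 2, and in the ATF4 group the control of experiment 3 holds the highest points.

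The genes with the widest spread between controls were also those with the largest MEKi differences. Trib3, Aldh1l2, Ddit3 and Slc7a11 had control spans of 2.31, 2.11, 1.93 and 1.43 and the 4 largest differences of the members. In each of them the largest difference came from experiment 3, whose control was highest. The same control enters the span and the difference, so these measures are not independent of each other, and no correlation is given. Hspa5 and Sdf2l1, with control spans of 1.06 and 1.25, had estimates of −0.07 and 0.03. The 6 members with a CARE match in the promoter window had a median difference of −0.16, from −0.48 for Slc7a11 to 0.10 for Asns, and the 7 with an ERSE match one of −0.046, from −0.10 to 0.07. Of the 6, 4 estimates were below 0 and 2 above, and of the 7, 4 were below and 3 above. The CARE set had medians of −0.10, 0.05 and −0.30 in experiments 1, 2 and 3. It includes Slc7a11, which is dim, and Trib3, whose match lies after the start. No median was computed for other genes of the array with such matches. Both sets were found by sequence alone, and neither was tested.

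**Figure D4:**
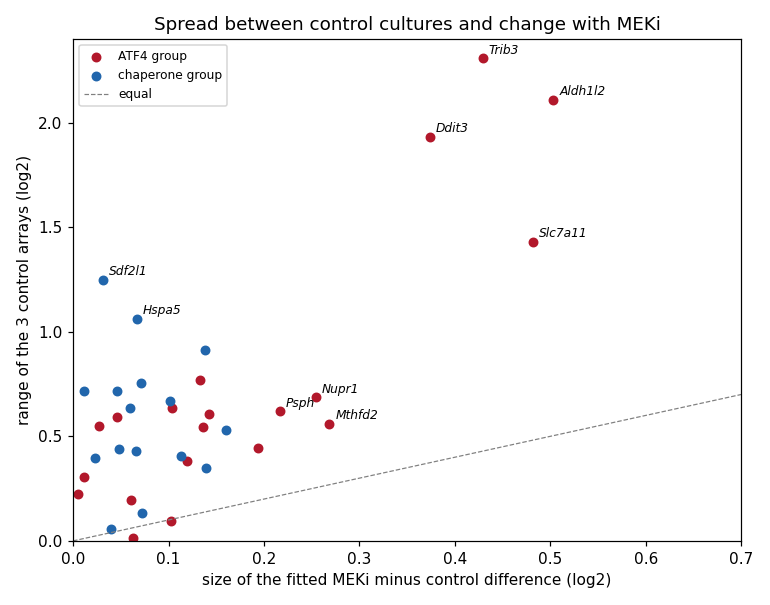
Span of the 3 control arrays (y axis) against the size of the estimated MEKi minus control difference (x axis), both on the log2 scale, for each member; the dashed line marks equal values. Above the line lie 34 of the 36 members, as do 87.2% of all probe sets, and Trib3, Aldh1l2, Ddit3 and Slc7a11 lie at the upper right.

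Around the members, 8 further lists of the same pathways held 118 measured genes, and in none of the lists did a gene pass at an adjusted p under 0.05 from limma (lowest 0.162). Of 9 genes for the eIF2α kinases, IRE1, the phosphatase subunits that act on eIF2α, a subunit of eIF2B and an ATF6 protease, 0 passed an unadjusted p of 0.05 (median 0.051). Ppp1r15a, which encodes the eIF2α phosphatase subunit GADD34, differed by −0.60, 0.29 and −0.81 and Ern1, which encodes IRE1, by −0.22, 0.19 and −0.54, both lower in experiments 1 and 3 only. Most probe sets of the array were also not lower in experiment 2. Of 18 aminoacyl-tRNA synthetases, 2 were higher at an unadjusted p under 0.05 (median 0.024), namely Hars and Tars, each with an estimate of 0.22. Of 22 other genes linked to ATF4, 3 were lower and 3 higher (median −0.054). The largest differences there were those of Mthfd1l (−0.61, adjusted p = 0.162), a mitochondrial folate enzyme that was lower in each experiment, and Vegfa (−0.51, 0.353), a growth factor of vessels.

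Of 21 other ER folding genes, 1 was lower and 2 higher at an unadjusted p under 0.05 (median 0.057). Ero1a, the oxidase that recharges disulfide isomerases, differed by −1.89, −0.28 and −0.46 in experiments 1, 2 and 3 (estimate −0.88, standard error 0.28, adjusted p = 0.378), and Fkbp14, a prolyl isomerase of the ER, by 0.23, 0.31 and 0.49 (estimate 0.34, 0.249). Of 13 genes of ER-associated degradation, 1 was higher (Vcp, 0.21; median 0.069), with Edem2 at 0.14. Of 17 genes of translocation into the ER, 0 passed an unadjusted p of 0.05 (median 0.054), with Spcs1 at 0.17 and Ssr3 at 0.12. Of 13 cytosolic heat shock genes, 5 were higher at an unadjusted p under 0.05 and 0 lower (median 0.054), led by the co-chaperone Dnajb4 (0.27, adjusted p = 0.304) and the heat shock factor Hsf2 (0.26, 0.316), both higher in each experiment. Of 9 mitochondrial chaperones and proteases, 0 passed (median 0.010), with the protease Lonp1 at −0.22 and the chaperone Trap1 at 0.15. Over all probe sets 2.31% were lower and 7.58% higher by the same unadjusted criterion.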

How the data were processed

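RNA of 6 MS5 cultures (3 control, 3 MEKi) was hybridized to Affymetrix mouse Gene 1.0 ST arrays. The authors normalized the intensities with RMA and deposited log2 values of 28853 probe sets. Per the labels and the methods, statistics were then run in Partek, with versions not given in the sources used here. RMA quantile-normalizes the probes, which can reduce a shift shared by most genes, although array medians still ran from 6.29 to 6.38. The values were used as deposited, with 0 array columns left out and no filter, and each gene was represented by its brightest probe set among those naming 1 gene (21789 probe sets).

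MEKi was compared with control in R 4.3.3 with limma 3.58.1 (lmFit, eBayes), the experiment being a block. The Benjamini-Hochberg adjustment covered all probe sets. The numbers pair the arrays because each experiment gave both cultures. Deviations from the group means correlated by 0.59 to 0.81 across probe sets within an experiment and by −0.61 to 0.21 otherwise. Residual degrees of freedom were 2, to which the prior added 5.17. The procedure was also run on simulated data with independent normal noise drawn from the variance prior of the same fit. Changes under 1.5-fold, such as the estimates of all members, were not simulated. That run therefore does not show how often changes of their size would be found. The methods name an analysis of variance at P-values of at most 0.05% with 1.5-fold, run here as an alternative at 0.05 and 0.0005.

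The members and lists were chosen with earlier results of these data known. All 36 members are named. Each array value is given for members past an unadjusted p of 0.05 and for Atf4, Ddit3, Xbp1, Atf6 and Hspa5, and of each further list the 2 largest differences are named. Groups and lists were described by counts and medians, with no set test. Confidence intervals are at 95% from the limma fit. Plots were made in Python 3.11.15 (matplotlib 3.10.9). The number of arrays limits the precision.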

Additional observations from a re-analysis of the deposited data

How the results depend on the processing

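In 13 alternative fits, 0 members passed an adjusted p of 0.05 (lowest 0.0921). The members past an unadjusted p of 0.05 from limma were 5 as reported. They were 0 without the replicate block or with the experiment as a random block. An analysis of variance with treatment as its only factor also gave 0. The count was 8 with an intensity trend and robust prior, and 2 to 7 with 1 experiment left out. The count past 1.5-fold and p of 0.05 was 0 as reported and 0 to 4 with 1 experiment left out (4 without experiment 2, namely Ddit3, Trib3, Aldh1l2 and Slc7a11, and 1, Slc7a11, without experiment 1). The members that differed between experiments, 12 as reported, were 20 with the trend and 6 to 15 with 1 experiment left out. The ATF4 group median minus the chaperone group median was 0.009 as reported. It was −0.054 to 0.074 with 1 experiment left out and −0.070 in experiment 2 alone. Without the regulators Atf4, Atf5, Ddit3, Trib3, Nupr1 and Cebpg, but with Sesn2 and Chac1 kept, it was 0.054. The chaperone group median was 0.082 in experiment 2 alone, and the ATF4 group median was −0.078 in experiment 3 alone. The cause was not tested. Leaving out the replicate block or experiment 2, centring the arrays, or making the experiment a random block left 0 probe sets of the whole array at an adjusted p under 0.05, against 46 as reported, so that Ccnd1 and Fosl1 also missed it there. For the 36 members the block changed no adjusted call.

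Some members with estimates from 0.0050 to 0.046 changed sign after a further quantile normalization, namely Sesn2 (−0.050), Chac1 (−0.011), Sdf2l1 (−0.027) and Atf6 (−0.022). Of these, Sesn2 (−0.027), Sdf2l1 (−0.00056) and Atf6 (−0.0087) also did so after centring, and Sesn2 (−0.0041) with array weights. With 1 experiment left out, the range crossed 0 for Atf5 (−7.5e-05 to 0.11), Cebpg (−0.085 to 0.040), Sesn2 (−0.026 to 0.049), Chac1 (−0.031 to 0.15), Psat1 (−0.063 to 0.25), Phgdh (−0.099 to 0.32), Slc3a2 (−0.12 to 0.050), Hyou1 (−0.10 to 0.057), Sdf2l1 (−0.19 to 0.15), Pdia6 (−0.16 to 0.021) and Atf6 (−0.027 to 0.052). The fit had 2 residual degrees of freedom per probe set, and the median standard error of a member was 0.082.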
